A study of Bos taurus with 16 samples.

Results

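GPX3 and GIPC2 are bovine genes whose transcripts were read on a spotted cDNA array, each through 1 cDNA clone printed as duplicate spots. They were chosen by their measured ratios: kidney over reference RNA was lower at each successive round of linear RNA amplification, from round 0 to round 3. They account for 4 of the 16896 spots, or 2 of the 8448 features (clones), on the array. Both were among the 5537 features that had 1 or more listed genes and a ratio in both replicates of every round. Because the ratios by round chose these genes, their differences between rounds are given as descriptions, with a standard error and no test.

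The study set kidney RNA of cattle (Bos taurus) against a common reference RNA, and its title names the question: whether linear amplification, meant for single bovine embryos, keeps expression ratios. Kidney RNA was hybridised as unamplified total RNA (round 0) and after 1, 2 or 3 rounds of amplification, which copies RNA by in vitro transcription. Each round had 2 kidney RNAs, replicates 1 and K, and each of these 8 RNAs was read on 2 arrays of opposite dye, one with kidney in Cy5 and one with kidney in Cy3, for 16 arrays. The reference was amplified for 2 rounds throughout, so unamplified kidney was set against an amplified reference at round 0. The sources used here do not give the make-up of the reference, nor say if replicates 1 and K came from different animals or from 1 RNA prepared again.

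GPX3 is the secreted, selenium-containing glutathione peroxidase of plasma, which reduces hydroperoxides with glutathione and is made mainly by proximal tubule cells of the kidney. GIPC2 belongs to the GIPC family of PDZ-domain adaptors, which hold the C-terminal tails of membrane receptors and, in the family member GIPC1, link them to the motor protein myosin VI during endocytosis. The proximal tubule takes filtered proteins up by endocytosis at its brush border.

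Unless another scale is named, every value below is the log2 of kidney signal over reference signal, less the median of that array. A value of 0 is the ratio of the array's median feature, and 1 unit is a doubling of the ratio. The direction of the deposited ratios, Cy5 over Cy3, is likely rather than stated. It rests on a list of 19 features of kidney tubule genes that leaves out GPX3 and GIPC2. Over rounds 0, 1, 2 and 3 the median of that list was 2.92, 2.89, 3.09 and 2.78 with kidney in Cy5, and 3.18, 2.82, 2.93 and 2.82 with kidney in Cy3. The kidney list thus stood above the median feature in both orientations, and if the direction ran the other way every sign below would turn. In these bulk RNAs, fewer cells of a type and less RNA per cell cannot be told apart.

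On the arrays, 83.9% to 95.0% of spots had a ratio, and the correlation between duplicate spots was 0.496 to 0.822. The array medians, before centring, ranged from -1.33 to 2.31. One array stood apart: round 1, replicate 1, kidney in Cy3 held 52 numbers outside the range of a log2 ratio, which were treated as missing. Neither gene's spots were among them. The deposited values of the round 0 arrays all had 3 decimals, against 83.2% to 88.2% of the values of the amplified rounds, so a difference in processing and the absence of amplification cannot be told apart at round 0.

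GPX3 had a ratio in 32 of 32 spot readings. At round 0 its arrays read 6.65 (replicate 1, kidney in Cy5), 5.99 (replicate 1, kidney in Cy3), 7.00 (replicate K, kidney in Cy5) and 6.86 (replicate K, kidney in Cy3). All 4 unamplified readings stood above every later reading, and the mean ratio of GPX3 was the highest of the 5537 features. At round 1, in the same order of arrays, GPX3 read 4.72, 4.83, 4.34 and 3.93. At round 2 it read 1.78, 3.69, 4.09 and 4.34, with replicate 1 in Cy5 far below the other readings. At round 3 it read -0.65, 3.31, 1.15 and 2.49. The round 3 readings were the most spread, and 1 of them lay below the median feature of its array. The arrays behind the readings of 1.78, -0.65 and 1.15 had the lowest correlations between duplicate spots of all arrays, at 0.496, 0.560 and 0.588. They also held the most spots with a recurring number treated as missing (172, 126 and 160). The part of array quality in these readings was not tested.

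**Figure D1:**
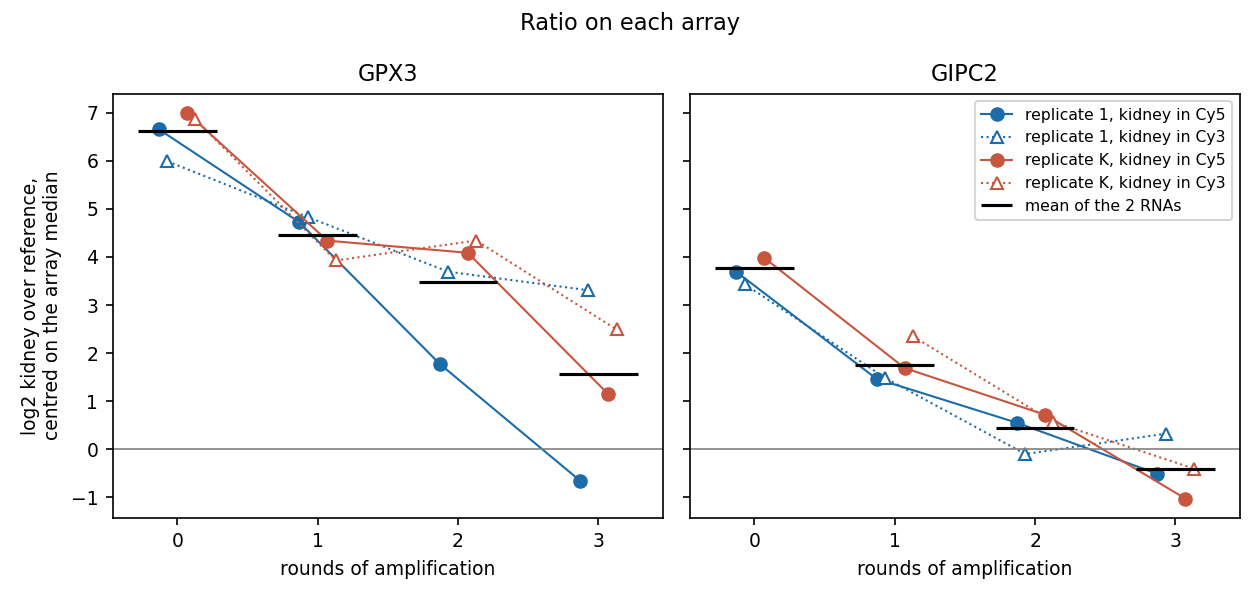
Centred log2 ratio of kidney over reference (vertical axis) for GPX3 and GIPC2 on each array, by amplification round (horizontal axis). Filled and open points mark kidney in Cy5 and in Cy3, colours mark the replicate, thin lines join arrays of 1 replicate and dye, and black bars are the means of the 2 RNAs. GPX3 means run 6.62, 4.45, 3.48 and 1.57 over rounds 0 to 3, and those of GIPC2 run 3.77, 1.75, 0.44 and -0.40.

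Averaged over the dyes, GPX3 was 6.32 and 6.93 in replicates 1 and K at round 0, 4.78 and 4.13 at round 1, 2.74 and 4.21 at round 2, and 1.33 and 1.82 at round 3. Its mean was 6.62 ± 0.43 at round 0, 4.45 ± 0.46 at round 1, 3.48 ± 1.05 at round 2 and 1.57 ± 0.35 at round 3 (SD, n = 2 each). On a linear scale these means are 98.7, 21.9, 11.1 and 2.98 times the ratio of the median feature. Its place by ratio among the 5537 features was 1, 7, 23 and 291 at rounds 0 to 3.

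GIPC2 had a ratio in 28 of 32 spot readings. Both spots were missing on the round 0, replicate K array with kidney in Cy3, and 1 spot each on the round 0, replicate 1, Cy3 array and the round 3, replicate K, Cy5 array. Replicate K at round 0 therefore rests on 1 array, with kidney in Cy5. The GIPC2 arrays read 3.69 (replicate 1, kidney in Cy5), 3.44 (replicate 1, kidney in Cy3) and 3.98 (replicate K, kidney in Cy5) at round 0. These 3 readings lay close together and above every later reading. In the order replicate 1 in Cy5 and Cy3, then replicate K in Cy5 and Cy3, the GIPC2 readings were 1.47, 1.49, 1.69 and 2.35 at round 1. At round 2 they were 0.55, -0.10, 0.72 and 0.57, and at round 3 they were -0.51, 0.33, -1.02 and -0.40. No round 2 or round 3 reading reached the lowest of round 1, while the readings of rounds 2 and 3 overlapped.

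Averaged over the dyes, GIPC2 was 3.57 and 3.98 in replicates 1 and K at round 0, 1.48 and 2.02 at round 1, 0.23 and 0.64 at round 2, and -0.09 and -0.71 at round 3. Its mean was 3.77 ± 0.30 at round 0, 1.75 ± 0.38 at round 1, 0.44 ± 0.29 at round 2 and -0.40 ± 0.44 at round 3 (SD, n = 2 each). On a linear scale the means are 13.7, 3.36, 1.35 and 0.757 times the ratio of the median feature, so that GIPC2 ended below that feature. Its place among the 5537 features was 34, 260, 1697 and 3892.

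Both genes varied more between replicates than most features did. The median replicate SD of all features was 0.15, 0.26, 0.23 and 0.23 at rounds 0 to 3. The SD of GPX3 at round 2, 1.05, was larger than that of 94.2% of features, and at the other rounds it was larger than that of 66.4% to 81.8%. For GIPC2 the share was 58.5% to 74.6%. The duplicate spots also differed: by 0.75 in the median array for GPX3 (0.083 to 2.72) and by 0.48 for GIPC2 (0.136 to 1.42), against a median of 0.27 over all features and arrays. The widest gap was on the round 1, replicate K, Cy3 array, where the GPX3 spots read 5.29 and 2.57.

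The first step, from total RNA to 1 round, was of like size in the 2 genes. GPX3 was lower at round 1 than at round 0 by a log2 difference of -2.17 (SE 0.53), or 4.50-fold, and GIPC2 by -2.03 (SE 0.34), or 4.07-fold. In replicates 1 and K the difference was -1.54 and -2.80 for GPX3, and -2.09 and -1.96 for GIPC2. For neither gene did the replicates of rounds 1 and 0 overlap. The share of all features without overlap was not counted, and the rule favours such separation. Nothing is therefore read from it, here or at later steps. Between these rounds 13.3% of all features passed limma's test at an adjusted p of 0.05, with 7.87% lower and 5.4% higher, and the rule that chose the genes used this contrast. Ranked by the size of the fall, GPX3 was at place 57 and GIPC2 at place 70 of 5537.

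At the second step the replicates of GPX3 parted. Its round 2 mean differed from its round 1 mean by -0.98 (SE 0.53), made of -2.04 in replicate 1 and 0.08 in replicate K, and the replicates of rounds 2 and 1 overlapped. GIPC2 differed by -1.31 (SE 0.34), with -1.25 in replicate 1, -1.38 in replicate K and no overlap. These are 1.97-fold and 2.49-fold differences of the means. No feature of the array passed limma's test between rounds 2 and 1 (0.0% called), while 569 had an unadjusted p under 0.05 and 31 passed in a fit of all 16 arrays with a dye term.

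At the third step GPX3 differed by -1.90 (SE 0.53) at round 3 against round 2, with -1.41 in replicate 1, -2.39 in replicate K and no overlap. GIPC2 differed by -0.84 (SE 0.34), with -0.32 in replicate 1, -1.35 in replicate K and no overlap. These are 3.73-fold and 1.79-fold differences, so that the last step was the larger of the later ones in GPX3 and the smaller in GIPC2; the difference between the genes was not tested. Again 0.0% of features passed limma's test, with 401 at an unadjusted p under 0.05 and 0 in the fit of all 16 arrays.

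**Figure D2:**
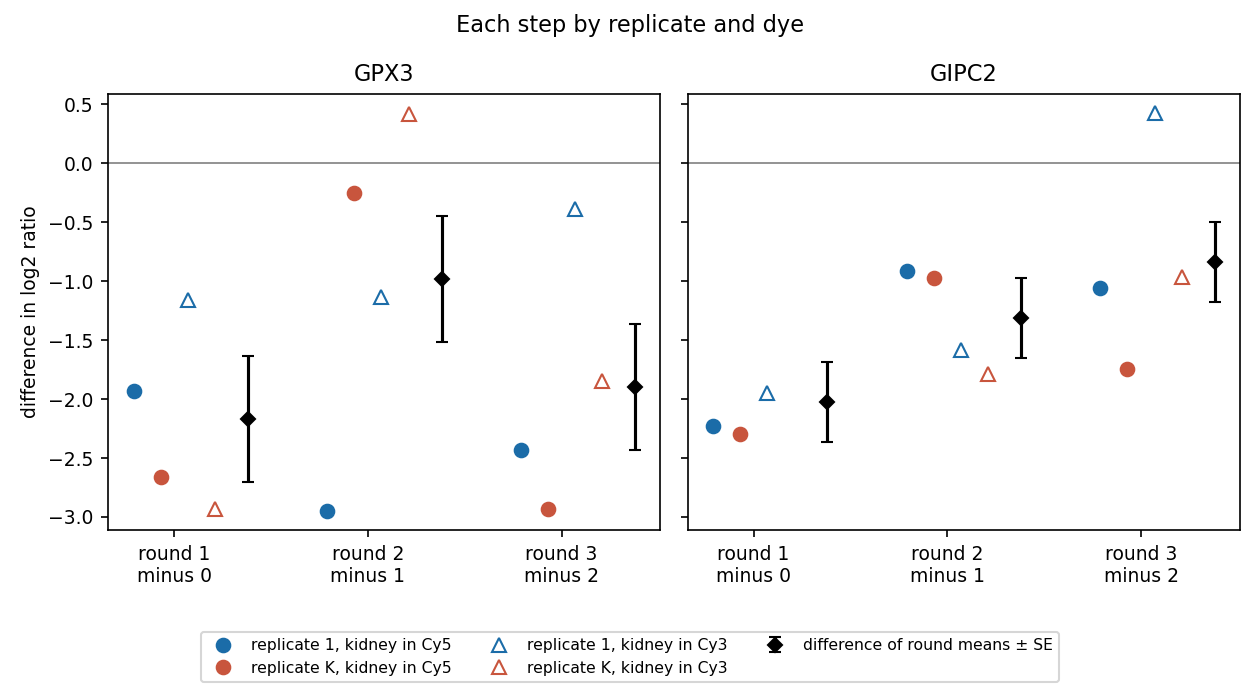
Difference in log2 ratio of each step (later minus earlier round) for GPX3 and GIPC2, by replicate (colour) and dye (filled, kidney in Cy5; open, kidney in Cy3), with the difference of round means ± SE in black. Replicate K with kidney in Cy3 was above 0 at the second step of GPX3 (0.42), and replicate 1 with kidney in Cy3 at the third step of GIPC2 (0.42).

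Over all rounds, GPX3 was lower at round 3 than at round 0 by -5.05 (SE 0.53), or 33.1-fold, with -4.99 in replicate 1 and -5.11 in replicate K. GIPC2 was lower by -4.18 (SE 0.34), or 18.1-fold, with -3.66 in replicate 1 and -4.69 in replicate K. The replicates of the first and last rounds did not overlap for either gene, and as at the first step nothing is read from this. Of all features, 11.6% passed limma's test at round 3 against round 0, 7.04% lower and 4.57% higher. The falls of GPX3 and GIPC2, by which the rule chose them, were at places 1 and 5 by size. The median difference of all features was 0.00, a value that the centring of each array holds near 0.

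Every step of the round means was downward in both dyes, with different sizes. With kidney in Cy5 the steps of GPX3 were -2.29, -1.60 and -2.68, and with kidney in Cy3 they were -2.05, -0.36 and -1.12. Its whole difference was -6.58 with kidney in Cy5 and -3.52 with kidney in Cy3. The steps of GIPC2 were -2.26, -0.94 and -1.40 with kidney in Cy5, against -1.52, -1.68 and -0.27 with kidney in Cy3, where round 0 rests on 1 spot of replicate 1. Its whole difference was -4.60 with kidney in Cy5 and -3.47 with kidney in Cy3. For both genes, the round 3 arrays with kidney in Cy5 were among those with the lowest correlation between duplicate spots (0.560 and 0.588).

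Array by array, with replicate and dye held, 11 of the 12 steps of GPX3 and 10 of the 11 measured steps of GIPC2 were downward. The exception for GPX3 was the second step of replicate K with kidney in Cy3, and that for GIPC2 was the third step of replicate 1 with kidney in Cy3. As many downward steps or more were found in 42 of 4476 features with 12 steps (0.938%) and in 2 of 399 features with 11 steps (0.501%). The rule chose both genes for falling ratios, and successive steps share arrays, so these shares are descriptions and not tests. Before arrays were centred, the counts were 10 of 12 for GPX3 and 8 of 11 for GIPC2.

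Without centring, the median of all features itself moved by -1.04 at the first step, 0.96 at the second, -0.21 at the third and -0.34 over all rounds. Uncentred, the second step was -0.07 for GPX3 and -0.40 for GIPC2. Relative to the moving median these are -1.03 and -1.36.

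The difference between the dyes was not used to choose the genes and could be tested. For GPX3 the ratio with kidney in Cy5 minus that with kidney in Cy3 was 0.66 and 0.14 in replicates 1 and K at round 0, and -0.11 and 0.41 at round 1. It was -1.92 and -0.26 at round 2, and -3.96 and -1.34 at round 3. The arrays of an RNA lay within 1 log2 unit of each other in both early rounds, and kidney in Cy5 read lower in all 4 RNAs of rounds 2 and 3. At round 3, 1.93% of features had a larger dye difference in replicate 1, and 14.6% in replicate K.

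Averaged over the 8 RNAs, GPX3 was 3.63 with kidney in Cy5 and 4.43 with kidney in Cy3. The mean difference of -0.80 (SE 0.33) did not pass limma's test (adjusted p = 0.0885), which 42.6% of 5326 features passed, 15.4% lower and 27.2% higher with kidney in Cy5. An exact two-sided sign-flip permutation over the 8 RNAs gave p = 0.211, where 0.00781 is the smallest p it can give, with kidney in Cy5 lower in 5 of 8 RNAs. Leaving out 1 RNA gave differences from -1.12 to -0.47, and scaled arrays gave -0.13 (limma adjusted p = 0.814). The change of the GPX3 dye difference at round 3 against round 0 was -3.05 (SE 0.93), with an adjusted p of 0.233 by limma, a test that 0.282% of features passed and that was added after the values were seen.

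For GIPC2 the dye difference was 0.26 in replicate 1 at round 0, -0.02 and -0.66 in replicates 1 and K at round 1, 0.65 and 0.15 at round 2, and -0.83 and -0.62 at round 3. All of these were smaller than 1, and both signs occurred. GIPC2 was 0.94 with kidney in Cy5 and 1.10 with kidney in Cy3 over the 7 RNAs read in both dyes. The fitted difference of -0.10 (SE 0.17) did not pass limma's test (adjusted p = 0.640), and the exact sign-flip permutation gave p = 0.516, where 0.0156 is the smallest p it can give. Its change at round 3 against round 0 was -0.99 (SE 0.53), with a limma adjusted p of 0.389.

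**Figure D3:**
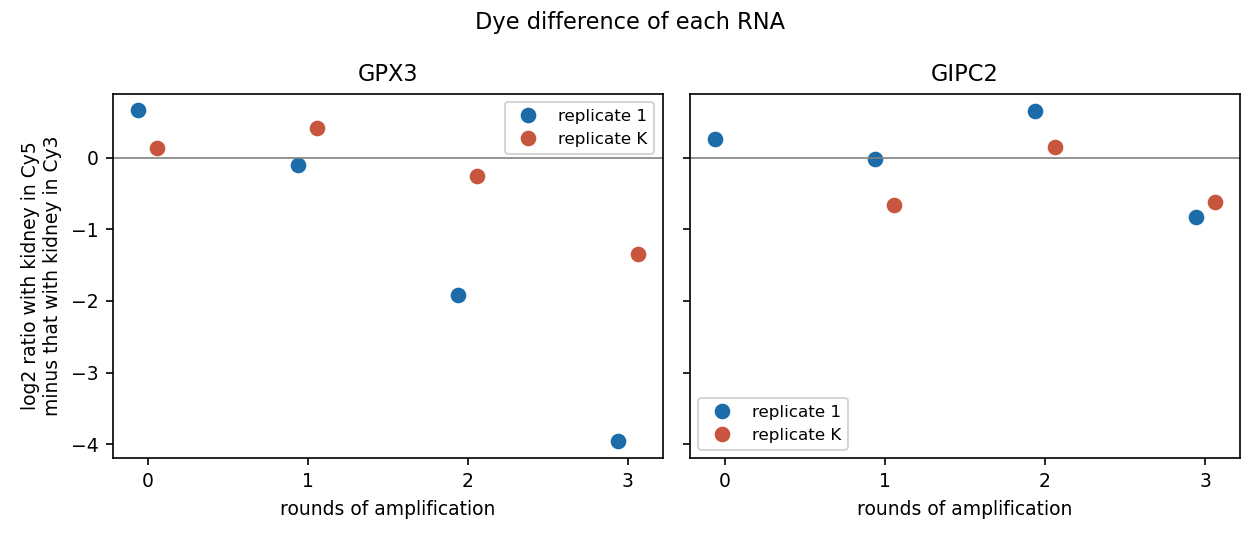
Ratio with kidney in Cy5 minus that with kidney in Cy3 (log2, vertical axis) for each kidney RNA, by round and replicate, in GPX3 and GIPC2. For GPX3 both round 3 RNAs lie below 0, at -3.96 and -1.34, while the 7 values of GIPC2 lie between -0.83 and 0.65.

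Across the array, the mean ratio was lower at each successive round in 406 features (7.33%) and higher at each in 566 (10.2%). In 8 of the falling features (0.144% of all) each of the 3 steps was larger than 0.5 in size. Ranked by the smallest of the 3 falls, among those with 1 gene symbol, GPX3 came first with 0.98 and GIPC2 next with 0.84. The rule chose both genes for falling at every step, so nothing is read from these places. Just outside them stood PHLDB2, a phosphoinositide-binding protein of the cell cortex, with a smallest fall of 0.67 and round means of 1.28, 0.22, -0.75 and -1.42. REEP3, a protein that shapes the endoplasmic reticulum, and RESTB followed, each with a smallest fall of 0.51.

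**Figure D4:**
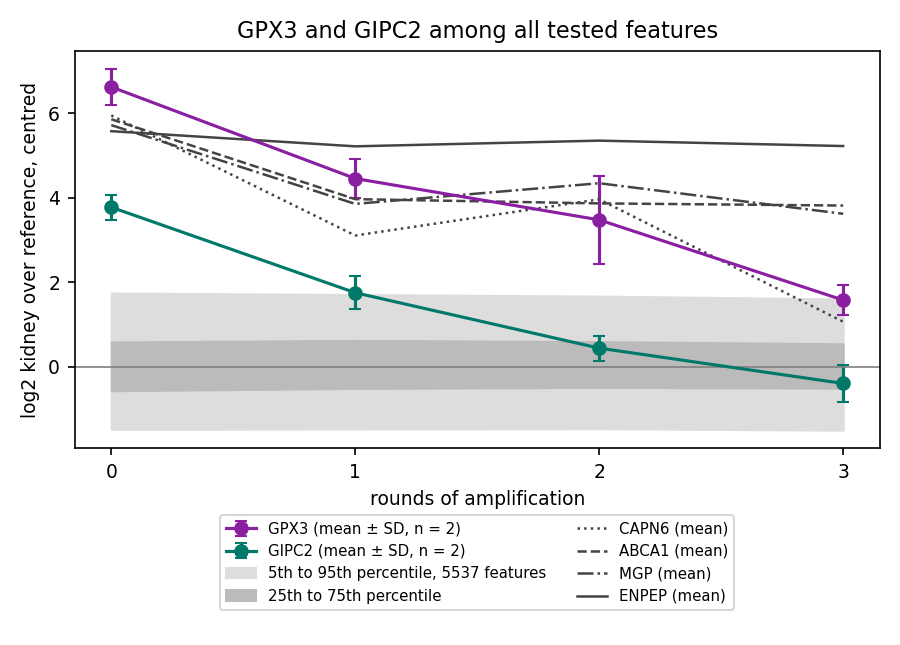
Round means of GPX3 and GIPC2 (log2 ratio of kidney over reference, vertical axis) over amplification rounds, with SD bars (n = 2), against the percentiles of all 5537 features (shaded) and the means of CAPN6, ABCA1, MGP and ENPEP (grey lines), the next highest features at round 0. GPX3 starts as the highest feature at 6.62 and ends at 1.57, and GIPC2 starts at 3.77 and ends at -0.40, while the percentiles stay nearly level.

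The next highest ratios at round 0 are given beside GPX3 as a description, since picking features by a high round 0 ratio favours lower ratios later. CAPN6, a calpain relative without protease activity, had round means of 5.95, 3.10, 3.96 and 1.06. ABCA1, the exporter of cellular cholesterol, had 5.86, 3.97, 3.87 and 3.81, and MGP, an inhibitor of calcification, had 5.72, 3.85, 4.34 and 3.62. ENPEP, the brush border aminopeptidase A, had 5.58, 5.22, 5.35 and 5.22 and was the highest of all features at round 3. The ratio of GPX3 stood at place 291 in round 3, against places 639, 8, 10 and 1 for CAPN6, ABCA1, MGP and ENPEP.

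There were 32 features other than GPX3 and GIPC2 with a round 0 mean at or above that of GIPC2, a group described after the values were seen. Their median ratio was 4.52, 3.44, 3.61 and 3.27 over rounds 0 to 3, with a median difference of -1.28 at round 3 against round 0. All 32 were lower at round 3, with 14 called lower and 0 higher by limma, beside 7.04% and 4.57% of all features. Lower at every step were 6 of the 32, beside 7.33% of all features. Choosing features by a high round 0 ratio favours a lower ratio later, so nothing is read from the direction of the median difference or from these counts. GPX3 differed by -5.05 and GIPC2 by -4.18, and 3 of the 32 fell by more than GIPC2. The rule chose these genes by their falls, so nothing is read from the size either.

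The pattern of GPX3 over the 8 RNAs was most like that of DAB2 among 2414 features with 1 symbol whose round means spanned at least 1 log2 unit (Pearson r = 0.990). DAB2 is a clathrin adaptor that carries megalin in the proximal tubule, and its round means were 2.90, 1.85, 1.36 and 0.49. PHLDB2 (r = 0.982), the collagen galactosyltransferase gene COLGALT2 (0.977), NBEAL1 (0.969) and the adhesion molecule CEACAM1 (0.962) came next. GIPC2 correlated with GPX3 at 0.946, at place 13, and 53 features correlated at more than 0.9. The patterns of GIPC2 were nearest to RUFY3 (0.978), the Mediator subunit MED1 (0.975), NBEAL1 (0.969), SH3YL1 (0.969) and the zinc finger gene RBAK (0.966). Of these, RUFY3 had round means of 1.18, 0.43, 0.17 and -0.18, and 98 features correlated with GIPC2 at more than 0.9. These correlations rest on 8 RNAs that share the arrays and the order of rounds, and carry no p.

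**Figure D5:**
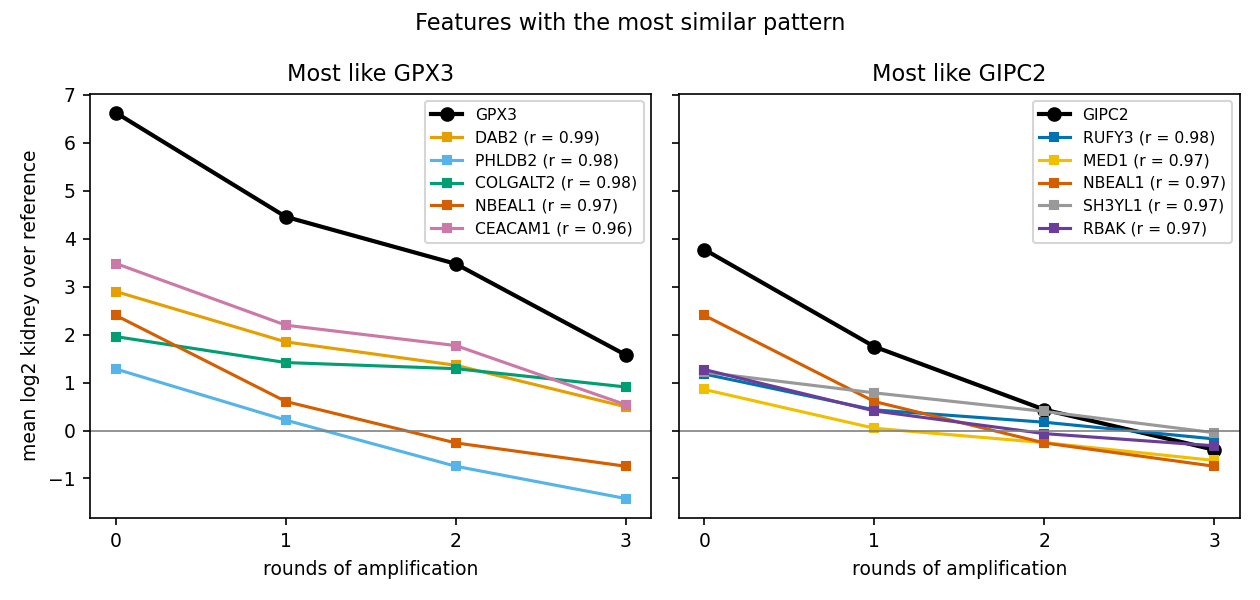
Round means (log2 ratio of kidney over reference, vertical axis) over amplification rounds of GPX3 and GIPC2, each with the 5 features of highest Pearson r over the 8 RNAs. DAB2 goes 2.90, 1.85, 1.36 and 0.49 beside GPX3, and RUFY3 goes 1.18, 0.43, 0.17 and -0.18 beside GIPC2.

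Of 9 other features of selenoproteins and glutathione peroxidases, 0 were higher and 0 lower past limma's threshold at round 3 against round 0, or at any step. At round 3 against round 0, 3 of the 9 had an unadjusted limma p under 0.05, beside 1749 of all 5537 features. With 7.04% of all features called lower and 4.57% higher, 0 of 9 is near the background and shows nothing particular to the family. Fitting all 16 arrays with a dye term called 2 of them lower. GPX4, the peroxidase of membrane lipids, differed by 0.71 (SE 0.20, limma adjusted p = 0.0719), opposite to GPX3, and the selenium carrier SELENOP by -0.76 (SE 0.28, adjusted p = 0.123). GPX4 passed with scaled arrays (limma adjusted p = 0.0417), and differed by 1.21 with kidney in Cy5 alone (limma adjusted p = 0.0499) and by 0.21 with kidney in Cy3 alone (limma adjusted p = 0.768). Without centring it differed by 0.34. SELENOP passed in the fit of all 16 arrays (limma adjusted p = 0.0469). The round means of SELENOP were 2.22, 2.45, 1.80 and 1.46, and those of GPX1, the cytosolic peroxidase, were 0.27, -0.12, -0.03 and -0.10. The median of the 9 features differed by -0.37, against 0.00 for all features, a value that the centring holds near 0.

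The counts of glutathione and peroxide enzymes called were near the share over all features, 7.04% lower and 4.57% higher at round 3 against round 0. Of 13 features of glutathione synthesis and transfer, 1 was lower and 0 higher at round 3 against round 0, with a median of 0.13: GGT5, a glutathione-cleaving gamma-glutamyltransferase, differed by -1.57 (SE 0.29, limma adjusted p = 0.0261). Of 26 features of peroxide and superoxide removal, 1 was lower and 0 higher, with a median of 0.14. It was CP, ceruloplasmin, a copper-binding ferroxidase, at 1.18 in round 3 against 3.10 in round 0 (-1.92, SE 0.44, limma adjusted p = 0.0413). Leaving out any 1 of the 4 RNAs compared ended both calls. The differences were then -1.72 to -1.43 for GGT5 and -2.05 to -1.80 for CP. In the fit of all 16 arrays with a dye term, CP differed by -1.61 and did not pass (limma adjusted p = 0.479), while GGT5 passed (0.00164). CP also fell short with the replicate block (limma adjusted p = 0.0574), without centring (0.0585) and with all features (0.0531). GGT5 fell short without centring (limma adjusted p = 0.0512) and with kidney in Cy5 alone (0.0863). Catalase, CAT, had round means of 2.93, 2.51, 2.98 and 3.41.

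The partners of GIPC adaptors were represented by 7 features, none past limma's threshold at round 3 against round 0, with a median of -0.60. An unadjusted limma p under 0.05 was found in 3 of the 7, beside 1749 of all 5537 features. At a background of 7.04% lower and 4.57% higher, 0 of 7 is near the share over all features. TGFBR3, the betaglycan co-receptor, differed by -1.91 (SE 0.56, limma adjusted p = 0.0760), and MYO6, myosin VI, by -0.73 (SE 0.22, adjusted p = 0.0831). TGFBR3 differed by -2.83 without round 3, replicate 1 (limma adjusted p = 0.0312) and by -0.99 without round 3, replicate K (limma adjusted p = 0.147). It differed by -3.18 with kidney in Cy5 alone (limma adjusted p = 0.0427) and by -0.64 with kidney in Cy3 alone (limma adjusted p = 0.597). Fitting all 16 arrays with a dye term called 1 of the 7 lower. It was this clone of MYO6 (limma adjusted p = 0.0151) and not TGFBR3 (0.0556). A second clone of MYO6 differed by -0.81 (SE 0.47, limma adjusted p = 0.287) in the main fit.

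As a check of the tissue, the 19 kidney tubule features had medians of 2.97, 2.81, 3.08 and 2.73 over rounds 0 to 3, with 17, 17, 15 and 17 of them above 0. At round 3 against round 0, 4 were lower past limma's threshold (1 clone each of CA12, GATA3, SCNN1A and MME) and 1 was higher (SLC27A2), beside 7.04% lower and 4.57% higher over all features. Lower at every step were 4 of the 19, beside 7.33% of all features. Second clones differed by 0.43 for CA12 (limma adjusted p = 0.549), -0.37 for GATA3 (0.870) and -1.51 for MME (0.269), against -2.45, -1.86 and -1.43 for the clones called. The median difference of the 19 features was -0.57, smaller in size than that of GPX3 or GIPC2, which the rule chose by their falls. Without round 3, replicate 1 or without round 3, replicate K, 0 of them were called lower. The SLC27A2 call, at 1.43, ended when any 1 of the 4 RNAs compared was left out (limma adjusted p from 0.103 to 0.124), without centring (0.196) and with kidney in Cy3 alone (0.167). For markers of other cells, medians over rounds 0 to 3 were 0.07, -0.35, 0.51 and -0.11 for 11 immune features, 0.39, 0.29, 0.11 and 0.10 for 15 of stroma and vessel, and 0.06, 0.25, 0.23 and 0.27 for 20 of placenta. At round 3 against round 0, limma called 2 immune features higher and 0 lower, 2 of stroma and vessel higher and 3 lower, and 3 of placenta higher and 4 lower, beside 4.57% higher and 7.04% lower over all features. Their part in the values of GPX3 and GIPC2 was not tested.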

How the data were processed

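The deposited values were log2 ratios of the 2 channels for 15 arrays; the deposited column of the round 1, replicate 1, Cy3 array mixed such ratios with 52 other numbers, so that its unit as a whole is a score, though its values within the limit below entered as log2 ratios. The sources used here name no scanner, background correction or normalization. The recurring number 16.61 and all values beyond 10 in size were treated as missing. Arrays with kidney in Cy3 were turned to kidney over reference (groups from the labels), duplicate spots were averaged, the median of the 5693 listed features was subtracted from each array and each dye swap was averaged into 1 RNA. Probe genes came from the platform's annotation: 5598 features had 1 symbol, 95 several and 2755 none; all 5591 symbols found in a current gene list were the same there. No signal intensities were used, so dim spots could not be filtered, and precision is limited by the number of arrays.

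Rounds were compared with limma 3.58.1 (lmFit, eBayes, a mean per round, 4 residual and 2.4 prior degrees of freedom) and the R package data.table (version 1.17.8) under R 4.3.3. Adjustment was by Benjamini-Hochberg over 5537 features, and p-values reflect no more than the variation among these 8 RNAs, which may be technical. Dye differences per RNA were fitted the same way over 5326 features. The fits were also run on simulated data, where the noise for the dye fit was not the measured spread. Nothing is read from those runs. Replicate numbers were not used to pair the RNAs: deviations correlated above 0.1 in 1 of 6 pairs of rounds, rounds 2 and 3 (r = 0.17). Whether the numbers pair the RNAs is not known, so steps given by replicate are descriptions.

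The genes and lists were chosen with earlier results of these data known. Named were: the 5 features most correlated with each gene; the first 5 by smallest fall; the 5 highest at round 0; kidney tubule features; and, per list, the 2 largest called changes each way or the 2 smallest p. GPX1 and CAT, outside this rule, were chosen after their values were seen. Alternatives covered centring, scaling, dyes, spots, arrays, replicates and the samples fitted. The blood list had 0 features. No sequence or genome position was used.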

Additional observations from a re-analysis of the deposited data

How the results depend on the processing

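The 104 recomputed step and total differences of GPX3 and GIPC2 were all falls, and 84 moved by less than 1 replicate SD. The rule chose both genes by these falls, and some alternatives could not change a given difference. The SD rests on 2 RNAs per round. It was 0.81 for the second GPX3 step, so that a step of -0.24 counted among the 84. Scaled arrays gave -5.50 (GPX3) and -4.77 (GIPC2) at round 3 against round 0, and -2.81 and -2.77 at round 1 against round 0. The first and second GPX3 spot alone gave -4.62 and -5.48 at round 3 against round 0. Without centring, GPX3 differed by -3.18 at round 1 against round 0 and by -0.0695 at round 2 against round 1, where GIPC2 differed by -0.40. With kidney in Cy5 alone and in Cy3 alone, round 3 against round 0 gave -6.58 and -3.52 (GPX3) and -4.60 and -3.47 (GIPC2), and round 3 against round 2 gave -2.68 and -1.12 (GPX3) and -1.40 and -0.27 (GIPC2). GIPC2 gave -0.94 and -1.68 at round 2 against round 1, and -1.52 in Cy3 at round 1 against round 0. Leaving out 1 RNA gave, for GPX3, -5.35 to -4.75 over all rounds and -2.49 to -1.85, -1.72 to -0.24 and -2.64 to -1.16 by step; without round 2, replicate 1, the second step was -0.24. For GIPC2 it gave -4.49 to -3.87, and -2.30 to -1.75, -1.59 to -1.04 and -1.15 to -0.53.

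The 643 calls at round 3 against round 0 became 130 without centring (21 higher, 109 lower), 391 with kidney in Cy3 alone, 310 without the array with out-of-range numbers, 1322 with all 16 arrays and a dye term, 200 with only the rounds compared, and 91 to 541 without 1 RNA, lowest without round 3, replicate K. The 735 at round 1 against round 0 became 1868 without centring (39 higher, 1829 lower), 207 with kidney in Cy5 alone, 346, 1289 and 2 under the same last 3 fits, and 108 to 464 without 1 RNA, lowest without round 1, replicate K. Between rounds 2 and 1 the 0 calls became 31 with 16 arrays and 0 to 3 without 1 RNA, with 3 without round 1, replicate 1; between rounds 3 and 2, 0 calls were made under every alternative, 0 without 1 RNA included. The replicate block gave 567, 629, 0 and 0 calls, and among the named list genes with a call it ended those of CP and GATA3.

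The 2270 dye calls became 5135 without centring and 571 to 2776 without 1 RNA. The GPX3 dye difference was -2.25 without centring (limma adjusted p = 0.00159), -0.13 with scaled arrays (limma adjusted p = 0.814) and -1.12 to -0.47 without 1 RNA, and that of GIPC2 was -1.46 without centring (limma adjusted p = 0.00169), 0.0072 with scaled arrays and -0.18 to -0.02 without 1 RNA. Turned the other way, the kidney tubule median at round 0 is -2.97. The cause of these changes was not tested.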
